A study of Mus musculus with 2 samples.

Results

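The 9 genes described here are 4 uroplakin genes, Upk1a, Upk1b, Upk2 and Upk3a, and 5 genes of urothelial or stratified epithelium, Psca, Snx31, Sprr1a, Krt5 and Krt15. They were chosen by symbol from 43346 genes measured in heart, because their counts were far higher in replicate 2 than in replicate 1. That difference is therefore given as a description, with no test. Total RNA longer than 200 nucleotides, depleted of ribosomal RNA, was sequenced from hearts of mice of strain B6NTac;B6NCrl/Lap at postnatal day 0. The single group, newborn heart, held 2 biological replicates, each a pool of males and females under the same donor label, with no treatment or genetic change named. Replicate 1 pooled 15 mice, and the number of mice in replicate 2 was not given.

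Expected counts, the estimated fragments per gene, summed over genes to 69946215 in replicate 1 and 73615802 in replicate 2. Values below are TPM, which divide each gene's counts by its length and scale every library to the same total, so that genes can be compared within a library. The heart label held in both libraries. All 12 genes of a cardiomyocyte list were above 1 TPM in both, the median of their log2 differences being 0.02, and none was 2-fold apart. The libraries did differ in markers of other tissues. The summed level of 8 airway and lung genes was 30.8 TPM in replicate 1 against 3.6 in replicate 2, and that of 9 thymocyte genes 8.35 against 0.55.

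Uroplakins are membrane proteins that form the rigid plaques on the luminal face of the bladder, ureter and renal pelvis lining, the urothelium. Upk1a and Upk1b encode tetraspanins that pair with the single-span proteins of Upk2 and Upk3a, respectively, before the pairs leave the endoplasmic reticulum and assemble into plaques. Keratin 5 marks the basal cells of urothelium and of other layered epithelia, and the heart muscle itself is not known for any of these plaques. Upk1b is also known from mesothelium, the lining that on the heart forms the epicardium.

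The sequences before the start sites are shown because the genes were high together in 1 library. RefSeq promoter windows on GRCm38.p6 matched 4 of the 9 genes. Each is printed 5′ to 3′ on the strand of its gene and stops before the first base of any transcript annotated by GENCODE M21. Capitals mark matches to the motifs named below.
Upk3a (chr15:85016891-85017140, plus strand): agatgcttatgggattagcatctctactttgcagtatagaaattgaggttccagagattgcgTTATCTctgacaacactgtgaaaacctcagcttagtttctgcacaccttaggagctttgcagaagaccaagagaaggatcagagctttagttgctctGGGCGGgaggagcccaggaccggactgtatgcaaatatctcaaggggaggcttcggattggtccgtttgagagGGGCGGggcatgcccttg
Upk1a (chr7:30612848-30612984, minus strand): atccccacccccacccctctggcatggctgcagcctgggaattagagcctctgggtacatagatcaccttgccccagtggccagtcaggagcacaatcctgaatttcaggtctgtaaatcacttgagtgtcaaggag
Sprr1a (chr3:92485896-92486131, minus strand): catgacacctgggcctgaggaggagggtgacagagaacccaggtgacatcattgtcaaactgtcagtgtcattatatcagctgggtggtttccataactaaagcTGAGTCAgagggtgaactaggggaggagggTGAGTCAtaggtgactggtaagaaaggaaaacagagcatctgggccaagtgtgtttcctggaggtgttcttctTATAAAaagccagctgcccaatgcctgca
Krt5 (chr15:101712906-101713155, minus strand): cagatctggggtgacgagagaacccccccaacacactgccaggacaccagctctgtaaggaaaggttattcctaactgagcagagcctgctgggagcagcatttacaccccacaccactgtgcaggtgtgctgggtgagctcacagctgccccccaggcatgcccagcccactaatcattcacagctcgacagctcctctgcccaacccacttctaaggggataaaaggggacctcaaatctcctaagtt

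A search of the 250 bases before the RefSeq start, on both strands, found no motif common to all 4 windows. The search used TATAAA for the TATA box, AGATAA for GATA factors, GGGCGG for the GC box, GGAATG for TEAD factors and AACCGGTT for grainyhead-like factors. The AP-1 motif was TGA and TCA with any base between them. None of these 6 motifs contains another. Sprr1a held a TATA box that began 43 bases before the start and a pair of AP-1 matches that began 146 and 116 bases before it. Among 32851 RefSeq windows, 12.4% held the TATA motif and 6.75% the AP-1 motif. Upk3a held 2 GC boxes, beginning 91 and 18 bases before the start, and a GATA match at 188, against 32.7% and 9.99% of windows. Upk1a and Krt5 held none of the 6 motifs. The grainyhead-like motif, in 0.116% of windows, and the TEAD motif, in 12.6%, were in none of the 4. A match or its absence describes letters alone.

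Replicate 2 contained all 4 plaque uroplakins, while replicate 1 contained Upk1b and little of the others. At 1 TPM or more, 9 of the 9 genes were detected in replicate 2 and 1 in replicate 1. Over all genes, 2.25% reached 1 TPM in replicate 2 alone and 2.03% in replicate 1 alone. Upk3a, the single-span partner of Upk1b, stood at 0.07 TPM in replicate 1 and 32.6 in replicate 2 (ENSMUSG00000022435.5, mm10 chromosome 15, 85017141 to 85022547, plus strand). It rested on 6 and 2950 counts, a ratio of 467 after scaling to gene totals, with a 95% counting interval of 214 to 1274 (exact binomial). It had the highest level of the 9 genes in replicate 2. Its log2 difference, 7.56, was the widest of the 9 with a pseudocount of 0.1 TPM, but with 0.01 TPM it was 8.65, below Upk2 at 9.31 and Snx31 at 8.86, and by counts Sprr1a had the higher ratio. Differences on this scale are log2(TPM + 0.1), replicate 2 minus replicate 1, centred on the median gene. Counting intervals cover counting error only, since the reads carry no molecular identifiers, and not the spread between hearts.

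Upk1a, a tetraspanin of the plaque, was at 0.33 and 21.3 TPM, from 35 and 2407 counts (ENSMUSG00000006313.4, chromosome 7, 30603092 to 30612847, minus strand). Its count ratio was 65.3, with an interval of 46.9 to 94.0. Upk2, the partner of Upk1a, had 0 counts in replicate 1 and 418 in replicate 2, or 6.45 TPM (ENSMUSG00000041523.2, chromosome 9, 44452715 to 44454976, minus strand). Taking 3 counts as the most that a count of 0 allows, Upk2 was at least 132-fold higher in replicate 2. The partners were not at equal levels there, since Upk1a exceeded Upk2 3.30-fold in TPM, and Upk3a exceeded Upk1b 1.59-fold. Uroplakin protein was not measured.

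Upk1b was the exception among the 4, as the single gene of the 9 with over 1 TPM in replicate 1. It stood at 5.01 TPM in replicate 1 and 20.5 in replicate 2, from 782 and 3365 counts (ENSMUSG00000049436.4, chromosome 16, 38773184 to 38800328, minus strand). The count ratio was 4.09, with an interval of 3.78 to 4.43, the smallest of the 9 genes. Upk3b, a uroplakin gene of mesothelium that is not among the 9, was at 18.3 and 16.8 TPM, from 3980 and 3820 counts. Upk3b thus differed by -0.15 on the log2 scale where the 4 plaque genes differed by 1.99 to 7.56. The other gene of the family, Upk3bl, was at 0 and 1.3 TPM. Of 11 mesothelial and epicardial genes found in the data, all at a mean of 1 TPM, 5 were at least 2-fold higher in replicate 2 (10.1% of all genes) and none was 2-fold lower (8.90%). Those 5 were Upk1b itself, the keratin genes Krt8, Krt18 and Krt19, and Wt1, an epicardial transcription factor at 1.89 and 6.55 TPM. Of the others, Msln was at 9.28 and 12.4 TPM, Aldh1a2 at 5.54 and 7.03, and Bnc1 at 0.77 and 1.25. Lrrn4, at 6.67 and 5.24 TPM, and Tbx18, at 4.49 and 3.91, were lower in replicate 2, as was Upk3b. The list summed to 65.8 and 139.5 TPM, Upk1b and the keratins included. Its part in the level of Upk1b was not tested.

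**Figure D1:**
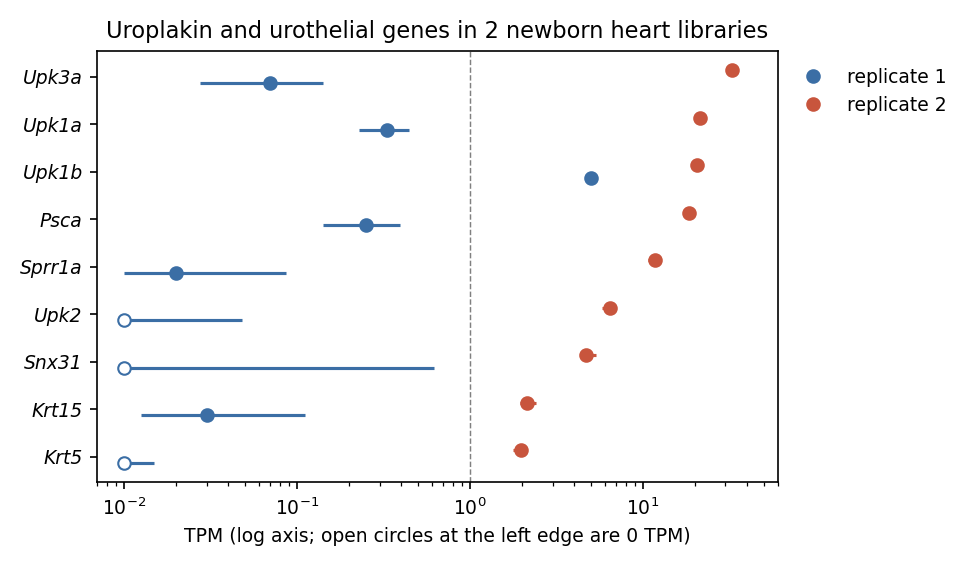
TPM of the 9 genes in each library on a log axis, with the interval deposited by the authors as a line, cut at 0.01 TPM, and open circles for 0 TPM. In replicate 2 all 9 genes lie between 1.97 and 32.6 TPM, and in replicate 1 only Upk1b, at 5.01 TPM, lies above 1 TPM (dashed line).

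Psca and Snx31, both abundant in urothelium, had the same pattern as the uroplakins. Psca encodes a small surface protein with a lipid anchor, of the Ly6 family, and was at 0.25 and 18.5 TPM from 15 and 1173 counts (ENSMUSG00000022598.6, chromosome 15, 74714839 to 74717069, plus strand). Its count ratio of 74.3 had an interval of 44.9 to 133. Snx31 encodes a sorting nexin, a family of proteins that guide membrane cargo, and it is known to bind uroplakins on their way to degradation. It had 0 counts in replicate 1 and 1254 in replicate 2, or 4.7 TPM (ENSMUSG00000013611.10, chromosome 15, 36504062 to 36555573, minus strand). By counts, taking 0 as at most 3, it was at least 397-fold higher in replicate 2. The deposited TPM intervals of Snx31 allow a smaller ratio, at 0.0097 to 0.62 in replicate 1 and 4.51 to 5.36 in replicate 2. With the authors' posterior mean TPM its log2 difference was 3.82. Of the 3 genes among the 9 with 0 counts in replicate 1, it had the most counts in replicate 2.

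The genes of layered epithelium were lower than most uroplakins in replicate 2 and nearly missing in replicate 1. Sprr1a encodes a precursor of the cornified envelope of keratinocytes, and is also known as a stress-induced gene of heart muscle. It was at 0.02 and 11.7 TPM from 1 and 672 counts (ENSMUSG00000050359.7, chromosome 3, 92483952 to 92485895, minus strand), and the ratio of 638.5 had a counting interval of 114 to 25256.5. Krt15, a type I keratin of basal cells, was at 0.03 and 2.14 TPM from 4 and 335 counts (ENSMUSG00000054146.8, chromosome 11, 100131758 to 100135928, minus strand), a ratio of 79.6 with an interval of 30.8 to 294. Krt5, a type II keratin that polymerises with type I partners, had 0 and 414 counts, or 0 and 1.97 TPM (ENSMUSG00000061527.6, chromosome 15, 101707070 to 101712898, minus strand). It was at least 131-fold higher in replicate 2.

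In replicate 2 the levels ran from Upk3a through Upk1a, Upk1b, Psca, Sprr1a, Upk2, Snx31 and Krt15 to Krt5. The intervals that the authors deposited with the TPM, whose level is not given in the sources used here, overlapped for the neighbours Upk1a and Upk1b, at 20.3 to 22.0 and 19.7 to 21.1. They also overlapped for Krt15 and Krt5, at 1.93 to 2.41 and 1.77 to 2.14, and for no other neighbours in this order. Upk3a stood at percentile 94.2 of 21474 protein-coding genes in replicate 2 and Krt5 at percentile 56.1. The median of protein-coding genes at 1 TPM or more was 6.86 TPM, so Upk3a, Upk1a, Upk1b, Psca and Sprr1a were above it and Upk2, Snx31, Krt15 and Krt5 below. In bulk tissue, fewer cells of a type and less RNA per cell cannot be told apart.

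All 9 genes together had 843 counts and 5.71 TPM in replicate 1, against 12988 counts and 119.9 TPM in replicate 2. Without Upk1b the sums were 0.70 and 99.4 TPM. The median log2 difference of the 9 was 5.62, against 0 over all genes by centring. With the count ratio in place of TPM, and genes at 0 set to the bound of 3 counts, the median was 7.03. A mean of 1 TPM over both libraries was reached by 8 of the 9, Krt5 falling just short. Of these 8, 7 were at least 4-fold higher in replicate 2, beside 2.92% of all 11594 genes at that mean, and Upk1b was just under 4-fold. A further 2.65% of all genes were at least 4-fold lower. The deposited intervals did not overlap for any of the 9. Of all 43346 genes, 13.5% had intervals apart with replicate 2 higher, but the 43346 include 25789 with 0 counts in both libraries. Among the 11491 genes ranked by difference below, 73.3% had intervals that did not overlap, in either direction. Separate intervals were therefore common among expressed genes and do not mark out the 9. Nothing is read from these counts, since the same contrast chose the genes.

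**Figure D2:**
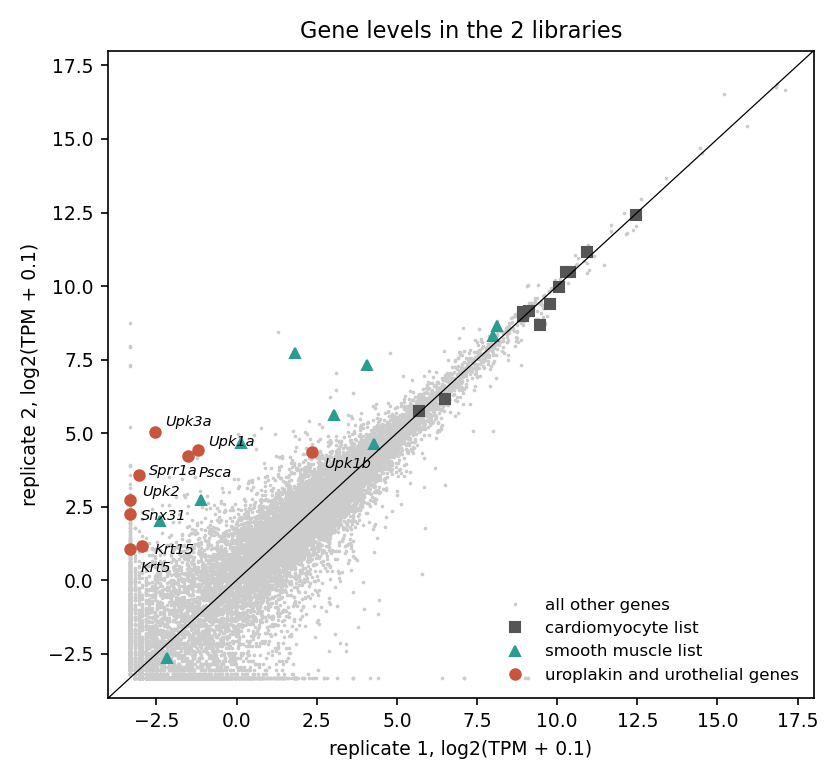
Level of every gene with TPM above 0 in either library, log2(TPM + 0.1), replicate 1 on the horizontal and replicate 2 on the vertical axis, with the line of equality. After centring, the 9 genes (circles) lie above the line by 1.99 to 7.56, 6 of 10 smooth muscle genes (triangles) lie at least 2-fold above it, and the cardiomyocyte genes (squares) lie along it.

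A count of 0 in one library beside a high count in the other was rare at this depth. With a minimum of 300 counts, set after seeing that all 9 genes passed it in replicate 2, 21 of 10707 genes (0.196%) had 0 counts in replicate 1. Upk2, Snx31 and Krt5 were among these 21, and nothing is read from that, since the same contrast chose the 9 genes. So were the claudin gene Cldn8, with 410 counts, and Ivl, the cornified envelope protein involucrin, with 304. Col17a1, the hemidesmosome collagen of basal epithelial cells, was outside the lists and had 304. In the reverse direction 9 of 10498 genes (0.0857%) had 0 counts in replicate 2, among them Prss16, a protease of thymic epithelium, and Cd8a, a T-cell co-receptor. Cldn8 and Col17a1 were outside the rule for named genes and were picked with their values known.

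The deposited posterior SD of the gene count was 0 in both libraries for all 9 genes. For 7 of the 9 a single transcript was annotated in the authors' tables. Krt15 had 2, and the 1700-nucleotide transcript took 100% of its TPM in both libraries, or 58.6% and 98.25% by the deposited posterior mean. Snx31 had 4, and in replicate 2 the 2696-nucleotide transcript took all 1254 counts, or 94.4% of the TPM by the posterior mean. No long gene on the opposite strand overlapped any of them in the annotation, and the one overlap, with Krt5, was an annotated microRNA, Gm44323.

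The genes beside the 9 in the genome mostly did not share their pattern. Upk3a, Psca, Snx31 and Krt5 lie on chromosome 15, which holds 3.56% of protein-coding genes, at places far from each other. Of the 18 protein-coding genes that flank the 9, 10 reached a mean of 1 TPM. Krt19, next to Krt15, was at least 2-fold higher in replicate 2, at 5.85 and 13.75 TPM, and it was the only one of the 10, beside 10.1% of all genes. By counts Krt19 differed less, with 795 and 1444, a ratio of 1.73. None was 2-fold lower, beside 8.90%. Cox6b1, a cytochrome oxidase gene next to Upk1a, was at 590 and 553 TPM, and Pabpc1, next to Snx31, at 19.8 and 19.5. A further 7 flanking genes had 0 counts in both libraries (25789 of all 43346 genes), among them Krt13 and the SPRR genes Sprr3 and Sprr4. The deposited intervals reached 12.6 and 21.5 TPM for Krt13 and 7.37 and 11.9 for Sprr4, so their 0 counts say little. Krt6a, next to Krt5, had 0 and 164 counts. In the wider Ly6 family list around Psca, Ly6d, an antigen of layered epithelia, was at 0.44 and 6.1 TPM from 21 and 308 counts. It was the 1 of 7 genes at a mean of 1 TPM that was 2-fold higher, while the other 6 differed by -0.92 (Jrk, next to Psca) to 0.91 (Ly6a).

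Keratins of simple epithelium, which urothelium and mesothelium both express, were also higher in replicate 2. Of 9 further keratins listed for urothelium, 4 reached a mean of 1 TPM and all 4 were at least 2-fold higher, beside 10.1% of all genes. The median of the 4 was 2.19, and by counts, where Krt19 falls short, 3 were 2-fold higher. Krt8 and Krt18, which pair in simple epithelia, were at 4.53 and 31.4 TPM and at 3.44 and 20.7 TPM. Krt7, a type II keratin of ducts and urothelium, was at 1.72 and 6.55 TPM. Krt20, the keratin of mature superficial urothelial cells, had 0 counts in both libraries. Krt17 went the other way, with 76 and 0 counts, and was also picked with its values known.

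Epithelial junction genes were mixed, claudin genes included. Of 17 listed, 7 reached a mean of 1 TPM, 4 of them at least 2-fold higher (10.1% of all genes) and none lower (8.90%), with a median of 1.27. Cldn4, a tight junction protein, had 5 and 457 counts, a ratio of 86.8 with an interval of 36.9 to 269. Cldn3, of the same family, was at 1.0 and 4.01 TPM. Cldn7 had 27 and 0 counts, though its deposited intervals overlapped, at 0.22 to 0.67 and 0.024 to 0.39 TPM. The desmosome genes Pkp1, with 69 and 0, and Dsc3, with 39 and 0, went the other way. Cldn7, Pkp1 and Dsc3 were all below a mean of 1 TPM. Dsp and Perp, junction genes that heart muscle also expresses, were at 47.3 and 42.1 and at 129 and 145 TPM. Epcam, a surface marker of most simple epithelia, had 0 counts and 1 count, and Dsg3 had 0 in both.

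The transcription factors known to drive urothelial differentiation, listed together with the secreted ligand Shh, were low in both libraries by TPM. Of 12 listed, 3 reached a mean of 1 TPM, and 1 of these, Pparg, was at least 2-fold higher (10.1% of all genes), at 0.98 and 2.27 TPM from 153 and 374 counts. Irf1, an interferon-response factor, was at 1.19 and 2.4 TPM, and Ehf, an epithelial ETS factor, at 1.2 and 0.98. Klf5, a zinc-finger factor of epithelia, went against the 9 genes, with 173 counts in replicate 1 and 0 in replicate 2. Foxa1 had 0 and 133 counts and Elf3 0 and 46, while Grhl3, a grainyhead-like factor of superficial cells, had 125 and 139. Gata3, a zinc-finger factor of urothelium, had 72 and 0, though its deposited intervals overlapped, at 0.43 to 7.0005 and 0.14 to 9.67 TPM. Its 0 counts in replicate 2 and its low TPM therefore say little. Foxa1, Elf3, Grhl3 and Gata3 were again picked with their values known, as were Trp63 and Shh. Trp63, a factor of basal cells, had 83 and 46 counts, at 0.18 and 0.23 TPM with overlapping intervals. With no filter on low values, 4 of the 12 were 2-fold higher and 2 lower. Shh, which is not a transcription factor, was among the 4, with 0 and 28 counts. Grhl3 was at 0.47 and 0.50 TPM.

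Genes of vesicle traffic and plaque handling differed less. Of 10 listed, 8 reached a mean of 1 TPM and none was 2-fold apart, with a median of 0.30, beside 10.1% of all genes 2-fold higher and 8.90% lower. The 2 below that mean were both higher in replicate 2, the water channel gene Aqp3 at 0.14 and 1.67 TPM and the GTPase gene Rab27b at 0.49 and 1.29. Rab11a, a GTPase of recycling vesicles, was at 26.8 and 47.95 TPM, and Tollip, an endosomal adaptor, at 20.65 and 20.9. Most genes of this list are expressed in many tissues. Of 19 envelope genes listed with Sprr1a, 11 had 0 counts in both libraries, among them the epidermal genes Krt1, Lor and Flg. Over all genes 25789 of 43346 had 0 in both, so nothing is read from that count. Sprr2a3 was at 0.55 and 2.08 TPM and Sbsn at 1.71 and 2.32 TPM, although Sbsn had fewer counts in replicate 2, 45 against 70. Ivl reached 1.68 TPM in replicate 2.

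**Figure D3:**
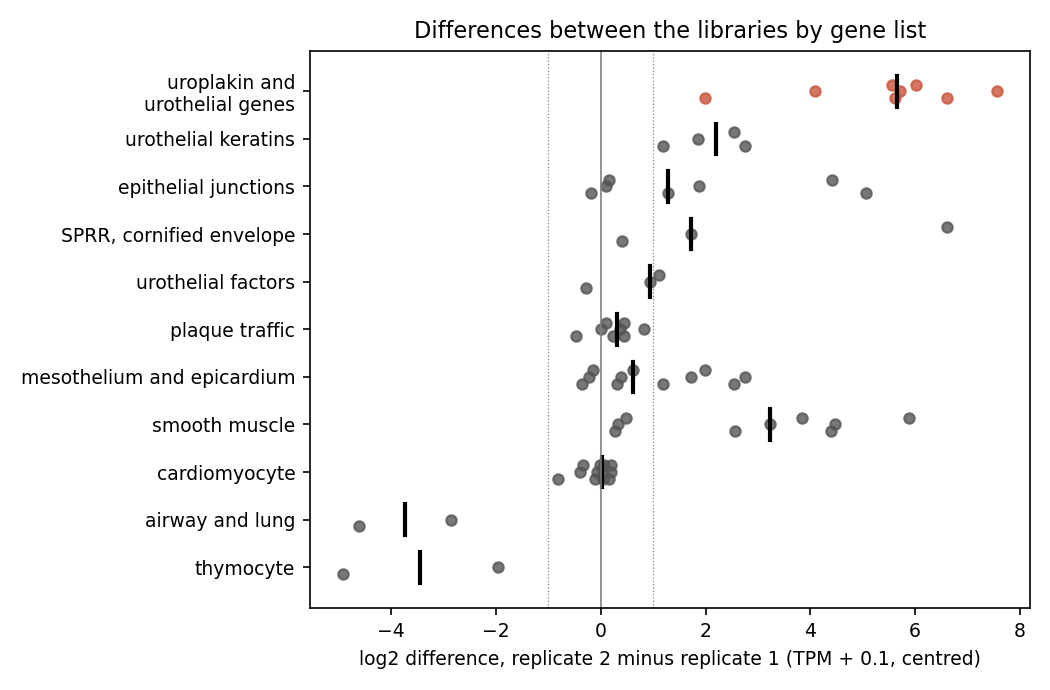
Log2 difference of single genes, replicate 2 minus replicate 1, by list, for genes with a mean TPM of at least 1, with the list median as a bar and 2-fold limits as dotted lines. The 9 genes (8 shown) and the smooth muscle list have the highest medians drawn, 5.66 and 3.22, the cardiomyocyte median is 0.02, and the airway and thymocyte genes lie below -1. Some genes stand in more than 1 list.

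Smooth muscle genes, which include the contractile proteins of bladder and gut wall, were higher in the same library as the 9 genes. Of 10 listed, 9 reached a mean of 1 TPM, and 6 of these were at least 4-fold higher in replicate 2, beside 2.92% of all genes. The other listed gene, Chrm3, a muscarinic receptor of smooth muscle, had fewer counts in replicate 2, 15 against 51. The median of the 9 differences was 3.22. Actg2, the actin of visceral smooth muscle, was at 3.45 and 213.8 TPM, from 215 and 23681 counts, a ratio of 105 with an interval of 91.5 to 120. It ranked 15 of 11491 genes by difference, among the genes at a mean of 1 TPM with 100 summed counts. Myh11, the smooth muscle myosin heavy chain, was at 1.01 and 25.0 TPM, and Synm, the intermediate filament protein synemin, at 0.09 and 3.94. The calponin gene Cnn1 was at 8.14 and 49.0 TPM, Tagln at 16.8 and 160 TPM, and P2rx1, an ATP-gated channel of smooth muscle, at 0.36 and 6.56.

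Acta2, the vascular smooth muscle actin that newborn heart muscle also expresses, differed by 0.47 on the log2 scale, and Des, the desmin of all muscle, by 0.27. The list summed to 586 and 1193 TPM, with none of its genes at 0 in both libraries. Its part in the difference of the 9 genes was not tested.

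**Figure D4:**
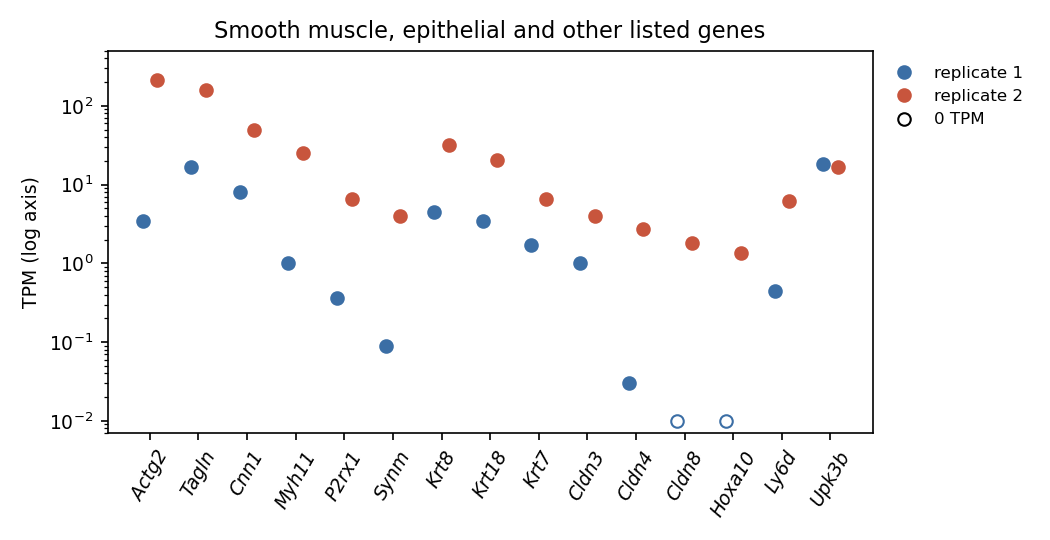
TPM in each library, on a log axis, of smooth muscle genes (Actg2 to Synm), epithelial genes (Krt8 to Cldn8), Hoxa10, Ly6d and Upk3b, with open circles for 0 TPM. Replicate 2 is the higher library for every gene drawn except Upk3b, which is at 18.3 and 16.8 TPM, and Hoxa10 and Cldn8 are at 0 in replicate 1. The genes drawn are a selection, and listed genes that were lower in replicate 2, among them Chrm3, Krt17 and Pkp1, are left out.

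Markers of other organs lined with similar epithelia were mixed. Counts of 0 in both libraries, given for these lists below, were common over all genes, at 25789 of 43346. Hoxa10, a homeobox gene of the posterior body, had 0 and 200 counts and reached 1.34 TPM in replicate 2, by counts at least 63.3-fold higher. Of 12 posterior and caudal genes listed, 6 had 0 counts in both libraries, namely Hoxa13, Hoxd12, Hoxd13, Hoxc10, Hoxb13 and Cdx2. Tbx3, the 1 gene of this list at a mean of 1 TPM, was lower in replicate 2, with 821 and 446 counts. Isl1 was also lower there, with 13 and 0. For kidney, 8 of 10 genes had 0 in both, Umod, Aqp2 and Slc12a1 among them. For oesophagus and forestomach, Krt4 had 0 and 292 counts and Krt6a 0 and 164. Sox2, with 52 and 1, and Pax9, with 11 and 1, had fewer counts in replicate 2. In this list 3 of 7 genes found had 0 in both, and none reached a mean of 1 TPM. For thymic epithelium, Foxn1 had 1 count in replicate 1 and 0 in replicate 2, and the list summed to 4.02 and 0.45 TPM, most of the former being Prss16 at 3.43. For airway and lung, Scgb3a2, a secretoglobin of airway cells, was at 24.8 and 3.38 TPM and Nkx2-1 had 0 in both. The part of these tissues in the difference of the 9 genes was not tested.

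Over the 2 libraries, likeness to the 9 genes can be measured by the ratio alone. Among 11491 genes ranked by log2 difference, Upk3a was at rank 3, Sprr1a 6, Upk2 12, Psca 18, Upk1a 21, Snx31 23, Krt15 71 and Upk1b 309. Nothing is read from these ranks, since the same contrast chose the genes and all but Upk1b passed the filter through replicate 2. Of the 15 genes outside the lists with the largest difference, 14 had 0 counts in replicate 1 and 8 were protein-coding. Of the 14, those with the most counts in replicate 2 were Gm14308 with 1110.9, Sptssb, a subunit of serine palmitoyltransferase, with 689, and Ninj2 with 429. Patj, a scaffold protein of tight junctions, ranked 4 by TPM, at 2.35 and 343.5, but had 1075 and 1481 counts, so its place rests on a change of effective length between the libraries. No length changed by over 1 nucleotide for 8 of the 9 genes, while Snx31, at 0 counts in replicate 1, was given 1164 nucleotides there and 2408 in replicate 2.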

How the data were processed

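Values came from the gene and transcript tables of both newborn heart replicates. Per the deposited notes, they refer to mm10 and GENCODE M4, and the column names are those of RSEM. The sources used here do not name the aligner or any version. Expected counts deposited by the authors are estimated fragments, not normalized. TPM and FPKM were scaled by length and total by the authors. The authors also deposited each transcript's percent of its gene's TPM, the posterior SD of counts, and interval bounds, a signal in TPM units.

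Identifiers were matched to GENCODE M21 on GRCm38 for names and positions (42462 of 43346 genes), and 183 of 185 listed symbols were found. Log2 differences used a pseudocount of 0.1 TPM, genes at a mean of 1 TPM, and centring by 0.022. The pseudocount shrinks differences of low genes, and the filter drops genes low in both libraries. Count ratios were scaled to gene totals, with exact 95% binomial intervals, and a count of 0 was taken to allow up to 3 counts per library. At a length of 1000 nucleotides, 3 counts are 0.028 TPM in replicate 1 and 0.027 in replicate 2. With 1 group of 2 replicates, and genes chosen on their difference, no test was run. The replicates are separate isolates of heart tissue per the labels.

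The 9 genes and all 19 lists were chosen with earlier results of these data known. Named were the 9 genes, up to 4 genes per list with the highest TPM in either replicate, list genes 4-fold apart at a mean of 1 TPM, list genes at 0 in both, flanking genes, and the 15 unlisted genes of largest difference with at least 100 summed counts. Grhl3, Foxa1, Elf3, Krt17, Cldn8, Epcam, Upk3bl, Foxn1, Wt1, Aqp3, Rab27b, Gata3, Cldn7, Pkp1, Dsc3, Chrm3, Ly6a and Col17a1 fall outside this rule. So do Msln, Aldh1a2, Bnc1, Lrrn4, Tbx18, Krt14, Trp63 and Shh. The 4-fold call was tested on simulated data of 12113 genes, where it found 100% of the genes given an 8-fold change and 0% of those given a 3-fold change. The simulated counts held Poisson noise alone and a fixed length per gene. Spread between hearts and changes of effective length were therefore not covered. Alternatives covered the pseudocount, filter, unit, scaling and fold threshold, and leaving out a replicate.

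Scaling factors came from edgeR (version 4.0.16) and DESeq2 (1.42.0) under R 4.3.3, after rounding the expected counts. Other steps ran in Python 3.11.15 with scipy 1.17.1, pandas 2.3.3, numpy 2.4.6 and matplotlib 3.10.9. Promoter sequences are RefSeq's on GRCm38.p6. Some listed genes are not reported here by name.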

Additional observations from a re-analysis of the deposited data

How the results depend on the processing

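Replicate 2 was the higher library for all 9 genes under all 9 alternatives of scale, unit or pseudocount, 81 values in all, of which 75 were at least 4-fold. The genes were chosen on this direction and the alternatives reuse the same reads, so nothing is read from its holding. The size of the differences depended on the pseudocount, because the genes were near 0 in replicate 1. The median over the 9 genes was 7.61 with a pseudocount of 0.01 TPM and 2.88 with 1 TPM, against 5.62 with 0.1 TPM. Krt5 ranged from 1.55 to 7.61 and Upk1b from 1.80 to 2.03. Detection at 1 TPM in both libraries held for 1 gene. Leaving out 1 replicate in turn gave 1 and 9. The count of all genes at least 4-fold higher in replicate 2 was 338, and it was 142 with a pseudocount of 1 TPM, 888 without a filter on low values, 94 at a mean of 5 TPM, 1171 at 2-fold and 158 at 8-fold. Epithelial junction genes at least 2-fold higher numbered 7 without the filter, against 4, and those 2-fold lower 2, against 0. The median of the cornified envelope list turned to -0.022 without the filter, when genes at 0 in both libraries enter. The smooth muscle count stayed at 6 without Acta2, Des and Smtn, an alternative chosen after seeing the data, as was leaving out Upk1b, which gave a median of 5.66. With 2 libraries, 1 of which carries the signal, no spread between hearts can be set against the levels of these genes.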

Other observations

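Of the genes listed for gut and reproductive tract, Lgals4 and Wfdc2 were higher in replicate 2 along with the urothelial genes. Lgals4, a galectin of gut epithelium that is known from urothelium as well, was at 0.61 and 6.37 TPM from 31 and 725 counts, and it was the 1 intestinal gene of 8 at a mean of 1 TPM. Fabp2, Tff3, Vil1, Cdx1 and Cdx2, which mark intestine, had 0 counts in both libraries. The mucin gene Muc2 had 102 and 0, though its deposited intervals overlapped, at 0.50 to 6.61 and 0.075 to 9.27 TPM. Wfdc2, a secreted protein of ducts and reproductive epithelia, had 44 and 139 counts. In the prostate and reproductive tract list 6 of the 8 genes had 0 in both, beside 25789 of all 43346 genes.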
